A study of Mus musculus with 4 samples.

Results

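The sites described here are the wide Rad21 peaks of mouse neural stem cells (NSCs) without an overlapping peak call in astrocytes (ASTs). They are the autosomal NSC peaks of 250 bp or more that share not a single base with any AST peak. There were 972 of them, among 17925 autosomal NSC peaks and 18405 NSC peaks in all. Of the 7791 wide autosomal NSC peaks they made up 12.5% (exact binomial 95% interval 11.7 to 13.2), the share of wide peaks that the rule itself picks out. Over all autosomal NSC peaks 34.2% had no AST peak, and of those under 250 bp 50.8%. They were selected on their width and their absence from the AST list, so both are given below as description, without a test.

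Rad21 was mapped by ChIP-seq in clonal NSCs derived from mouse embryonic stem cells and grown with EGF and FGF, and in the post-mitotic ASTs obtained from them with BMP and FGF. The medium was serum-free with Laminin, no treatment was applied, and the genotype and embryonic stem cell line were not given in the labels. The 4 libraries comprised, for either cell type, 1 of Rad21 chromatin and 1 of input chromatin that was not immunoprecipitated, without replicates. A difference between cell types can therefore not be set against a spread between replicates, and no p-value is given. Intervals cover counting error within these libraries only. All positions are in mouse build mm9.

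Rad21 closes the cohesin ring, which is built with Smc1 and Smc3. In dividing cells the ring holds sister chromatids together from replication until anaphase, and in interphase it gathers at sites bound by CTCF, where it anchors chromatin loops within and at the edges of topological domains. NSCs divide and carry replicated chromosomes for a part of their cycle, whereas post-mitotic ASTs do not. The peak files hold no CTCF or expression values, so the labelled cell types could not be checked against marker genes. Genes and DNA sequence at the sites were not analysed here, because the annotation used here is of a later genome build.

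In strength these sites lay between wide shared peaks and narrow NSC-only peaks, and close to narrow shared peaks. Strength moved with width and with absence from the AST list, both part of the rule, so this order is a description. Fold enrichment, the number of fragments over the summit relative to the local background of the peak caller, had a median of 8.21 (7.92 to 8.54, n = 972). The middle of the distribution ran from 6.16 to 11.2 (quartiles), and the full range from 2.04 to 23.2. Wide peaks shared with ASTs had a median of 14.7 (14.4 to 14.7, n = 6819), and NSC-only peaks under 250 bp one of 5.87 (n = 5152). Shared peaks under 250 bp had a median of 7.84 (7.63 to 7.92, n = 4982). Over all autosomal NSC peaks it was 8.76. The median summit pile-up was taken in scaled fragments, that is fragments times the NSC pile-up scale of 0.944. It was 29.3 for the wide NSC-only sites and 29.3 for narrow shared peaks. For wide shared peaks it was 51.9 and for narrow NSC-only peaks 19.8.

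The weak end of the class was well filled. Below a fold enrichment of 5 there were 98 of the 972 sites, between 5 and 10 there were 548 (56.4%), and between 10 and 15 there were 271 (27.9%). A fold enrichment of 15 or more was reached by 55 sites (5.66%, 4.29 to 7.30), beside 3200 of the 6819 wide shared peaks (46.9%) and 8 of the 5152 narrow NSC-only peaks (0.155%). Over all autosomal NSC peaks of that strength, 1.84% had no AST peak. Among the 500 wide autosomal NSC peaks of highest fold enrichment there was no NSC-only site, and among the 1000 highest there were 2. The significance assigned by the caller followed the same order, with a median −log10 q of 14.3 for the wide NSC-only sites, 37.6 for wide shared peaks and 6.40 for narrow NSC-only peaks. For narrow shared peaks it was 13.3.

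**Figure D1:**
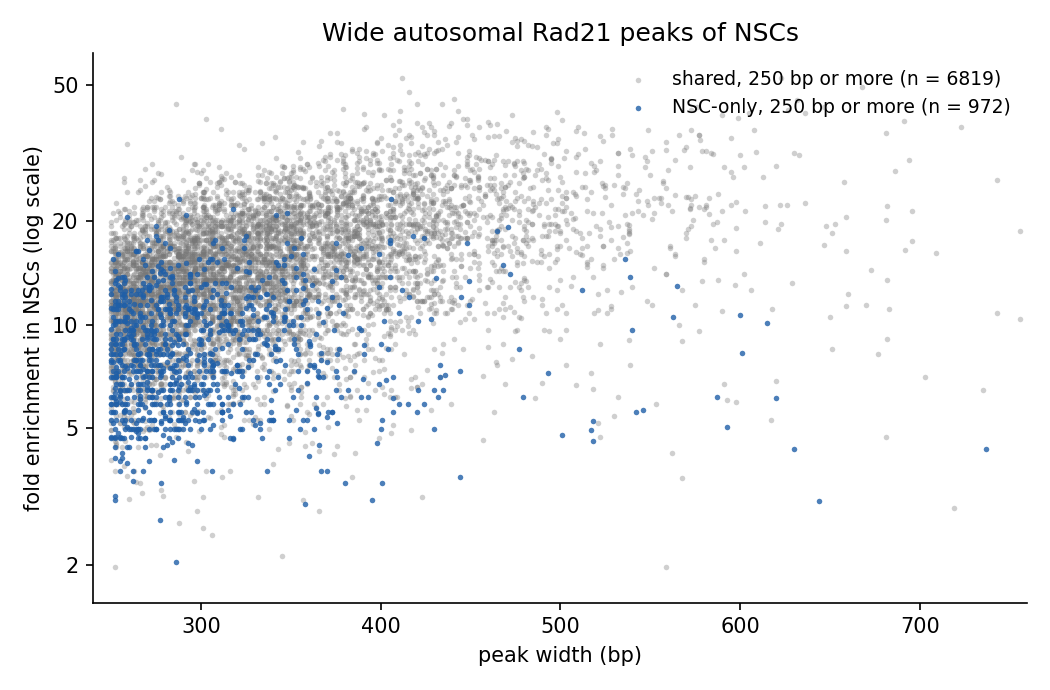
Wide autosomal NSC peaks, each drawn as a point by its width in bp (horizontal) and its fold enrichment (vertical, on a log scale), with NSC-only sites in blue (972) and peaks shared with ASTs in grey (6819). The blue points crowd towards the left and the lower part, with medians of 289 bp and 8.21, against 325 bp and 14.7 for the grey ones, and 14 shared peaks lie beyond the right edge at 760 bp.

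The share of NSC peaks without an AST peak fell as fold enrichment rose, for wide and for narrow peaks. Among wide peaks it was 56.6% (48.9 to 64.1) below a fold enrichment of 5, 46.3% (41.9 to 50.8) from 5 to 7 and 24.7% (22.4 to 27.2) from 7 to 10. It was 10.5% (9.33 to 11.7) from 10 to 15, 2.65% (1.96 to 3.50) from 15 to 20 and 0.485% (0.195 to 0.998) from 20 upward, where 7 of 1442 wide peaks were NSC-only. Within the same bin of fold enrichment below 15, narrow peaks were more often without an AST peak. The share of narrow peaks was 74.1% (72.1 to 75.9) below 5, 62.0% (60.4 to 63.6) from 5 to 7, 39.5% (37.7 to 41.2) from 7 to 10 and 18.0% (16.0 to 20.1) from 10 to 15. In each of these 4 bins the intervals of wide and narrow peaks did not overlap, whereas from 15 to 20 they did, at 4.88% (2.13 to 9.39) for narrow peaks. Width and absence both enter the rule, so this is a description. Strength was not fully matched within bins. From 10 to 15 shared peaks had medians of 12.6 (wide) and 11.7 (narrow), and below 5 of 4.30 and 4.48.

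**Figure D2:**
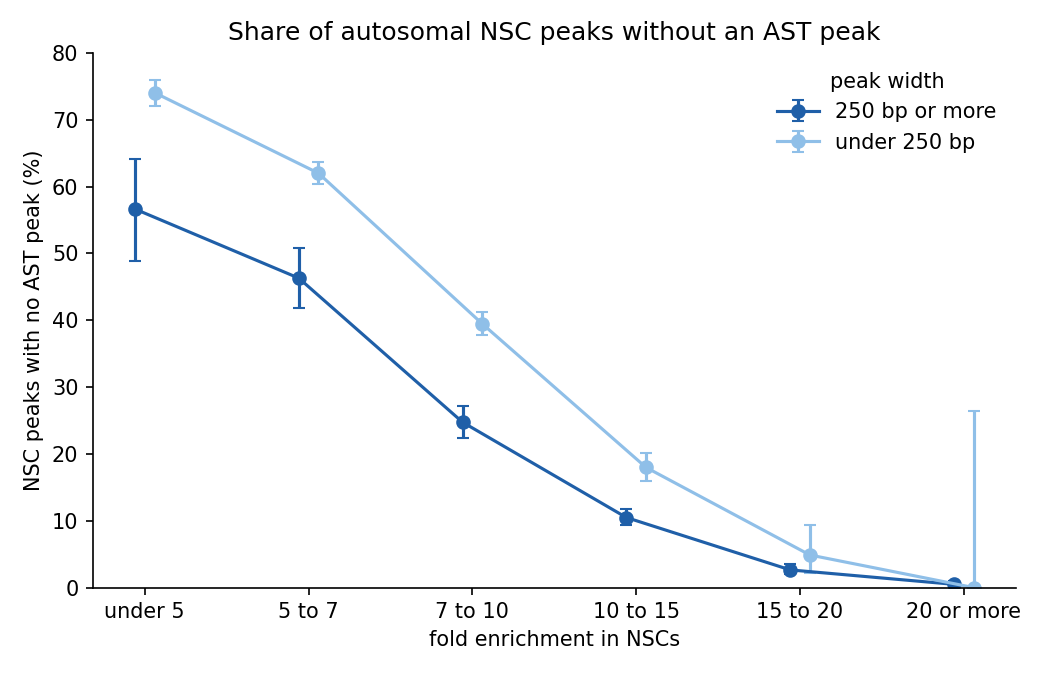
Percentage of autosomal NSC peaks without an overlapping AST peak (vertical axis) by fold enrichment in NSCs (horizontal axis), for peaks of 250 bp or more in dark blue and under 250 bp in light blue, with exact 95% binomial intervals. Both lines fall, from 56.6% to 0.485% for wide and from 74.1% to 0% for narrow peaks, of which only 12 had a fold enrichment of 20 or more.

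The sites were mostly just past the width limit. Their median width was 289 bp (286 to 293), with quartiles at 268 and 329 bp and the widest at 737 bp, and 68 of them (6.996%) reached 400 bp, beside 19.4% of wide shared peaks. The share of peaks without an AST peak was 32.3% (30.9 to 33.9) at 200 to 249 bp, 19.2% (17.8 to 20.7) at 250 to 299 bp, 11.5% (10.1 to 12.9) at 300 to 349 bp and 7.13% (5.81 to 8.63) at 350 to 399 bp. No break was seen at the limit. The 17 sites of exactly 250 bp had a median fold enrichment of 7.80 (4.69 to 12.7), and the 18 NSC-only peaks of 249 bp, just outside, one of 7.92 (5.25 to 14.7). In the same way, the 153 sites of 250 to 259 bp had a median of 7.80 and the 173 NSC-only peaks of 240 to 249 bp one of 7.92.

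The sites nearest to the limit were as follows. On chromosome 1 the first sites just inside, each 250 bp wide, lay at 44798151 to 44798400 (fold enrichment 12.3), 163061516 to 163061765 (5.28), 165333627 to 165333876 (6.16), 173942272 to 173942521 (4.72) and 179614562 to 179614811 (11.2). The last of these lay 324 bp from a shared AST peak of fold enrichment 13.5. The 5 first peaks of 249 bp, just outside, had fold enrichments of 5.25 to 7.63, and the 5 just inside 4.72 to 12.3. These 5 were the first by chromosome name and position, and all 18 peaks of 249 bp reached 14.7. On the other criterion the nearest approach of a site to an AST peak was 61 bp, and the smallest overlap that made a wide peak shared was 23 bp, with 3 wide shared peaks overlapping by under 50 bp at fold enrichments of 5.19 to 9.68.

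The summit lay off centre more often in these sites than in wide shared peaks, and most often in the weak ones. With each peak divided into 3 equal parts, the summit was in an outer part in 285 of the 972 sites (29.3%, 26.5 to 32.3), in 12.3% (11.5 to 13.1) of wide shared peaks and in 24.5% (23.3 to 25.7) of narrow NSC-only peaks. Below a fold enrichment of 5 it was 57.1% (46.7 to 67.1) of the sites and 46.7% (35.1 to 58.6) of wide shared peaks. From 5 to 10 it was 35.4% (31.4 to 39.6) against 24.1% (21.7 to 26.6), the only bin whose intervals did not overlap. Within that bin strength was not matched, as 46.3% of wide peaks from 5 to 7 were NSC-only and 24.7% of those from 7 to 10. From 10 to 15 the summit was in an outer part in 11.1% (7.59 to 15.4) against 12.3% (11.0 to 13.7). From 15 upward it was 9.09% (3.02 to 19.95) against 7.03% (6.17 to 7.97). The 29.3% depended on the limits of the class: at a −log10 q of 10 or more it was 17.2% (14.3 to 20.4), and 18.6% (17.0 to 20.3) with a width minimum of 200 bp.

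A part of the weak sites lay beside another NSC peak at very short range. Within 500 bp of another NSC peak there were 74 of the 972 sites (7.61%, 6.02 to 9.46), beside 3.26% (2.85 to 3.70) of wide shared peaks and 6.44% (5.79 to 7.15) of narrow NSC-only peaks. Of these 74, 69 had a fold enrichment under 10, and none had one of 15 or more. Calls within 500 bp of one another may not be independent sites. For 18 of the 972 sites a peak within 500 bp was itself a wide NSC-only site.

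The strongest sites stood well above the local background in NSCs and most lay well away from any AST peak. The strongest pair, each of fold enrichment 23.2 and a pile-up of 74.6 scaled fragments over a background of 3.22, were those at 22925511 to 22925916 of chromosome 8 and at 40798040 to 40798327 of chromosome 9. The chromosome 8 site was 406 bp wide, with its nearest AST peak, a shared one, 58.3 kb away. The chromosome 9 site was 288 bp wide and had an AST-only peak of fold enrichment 6.46 at 7.20 kb, while its nearest shared NSC peak was 54.5 kb away. Of the 10 strongest sites it was the only one with an AST peak within 10 kb.

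The next 5 sites lay 16.9 to 194.5 kb from an AST peak. On chromosome 16 the one at 18798925 to 18799242 (fold enrichment 21.7) was 102.1 kb from the nearest AST peak. On chromosome 1 the site at 171277825 to 171278172 (21.1) was 111.4 kb from one. On chromosome 17 the site at 84785087 to 84785378 (20.8) was 194.5 kb from an AST peak, and a narrow NSC-only peak lay 43.8 kb away. Chromosome 6 held a pair with shared sites between them: 71116769 to 71117110 (20.8), with a shared AST peak of fold enrichment 5.70 at 16.9 kb, and 71877985 to 71878243 (20.5), with one of 19.4 at 123.6 kb.

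The last 3 of the 10 lay on chromosome 8 at 35956034 to 35956308 (fold enrichment 19.4, AST peak at 76.5 kb) and on chromosome 1 at 53329533 to 53330003 (19.3, at 219.3 kb) and 195330190 to 195330471 (18.9, at 54.2 kb). The site at 53329533 had the highest pile-up of all 972, 96.3 scaled fragments, over a background 1.55 times the usual one. In 8 of the 10 the background was at the usual level, the exceptions being this site and the one at 195330190 (1.13 times). For 9 of the 10 the nearest AST peak was a shared one. Over all 55 sites of fold enrichment 15 or more, spread over 15 autosomes, the median distance to an AST peak was 45.5 kb, none had an AST peak within 1 kb (exact upper bound 6.49%), and 5 had one within 10 kb (9.09%, 3.02 to 19.95).

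The widest sites were of another kind. The widest, 737 bp on chromosome 19 at 36810334 to 36811070, had a fold enrichment of 4.34 over a background 1.55 times the usual. Those on chromosome 1 at 64352167 to 64352810 (644 bp) and 108070390 to 108071019 (630 bp) had 3.07 and 4.34, over 2.48 and 1.55 times the usual background. On chromosome 3 at 37781191 to 37781810 (620 bp) it was 6.13, and on chromosome 9 at 45548357 to 45548971 (615 bp) it was 10.1, both over 1.24 times the usual. All 5 widest sites thus lay over raised background and had their summit outside the middle part of the peak, and the first 3 lay 2.42 to 3.12 kb from a shared AST peak.

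Sites of the class were found at all distances from AST peaks, and few within 1 kb of one. The median distance to the nearest AST peak, from edge to edge, was 36.8 kb (32.3 to 41.0), with quartiles at 11.6 and 82.9 kb. An AST peak lay within 1 kb of 48 sites (4.94%, 3.66 to 6.49), within 10 kb of 225 (23.1%, 20.5 to 25.9), within 50 kb of 573 (59.0%, 55.8 to 62.1) and within 100 kb of 781 (80.3%, 77.7 to 82.8). Narrow NSC-only peaks gave nearly the same values, with a median of 34.3 kb (32.6 to 36.1), 5.36% (4.76 to 6.01) within 1 kb and 24.0% (22.9 to 25.2) within 10 kb. The intervals of both classes overlapped at each of these distances.

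**Figure D3:**
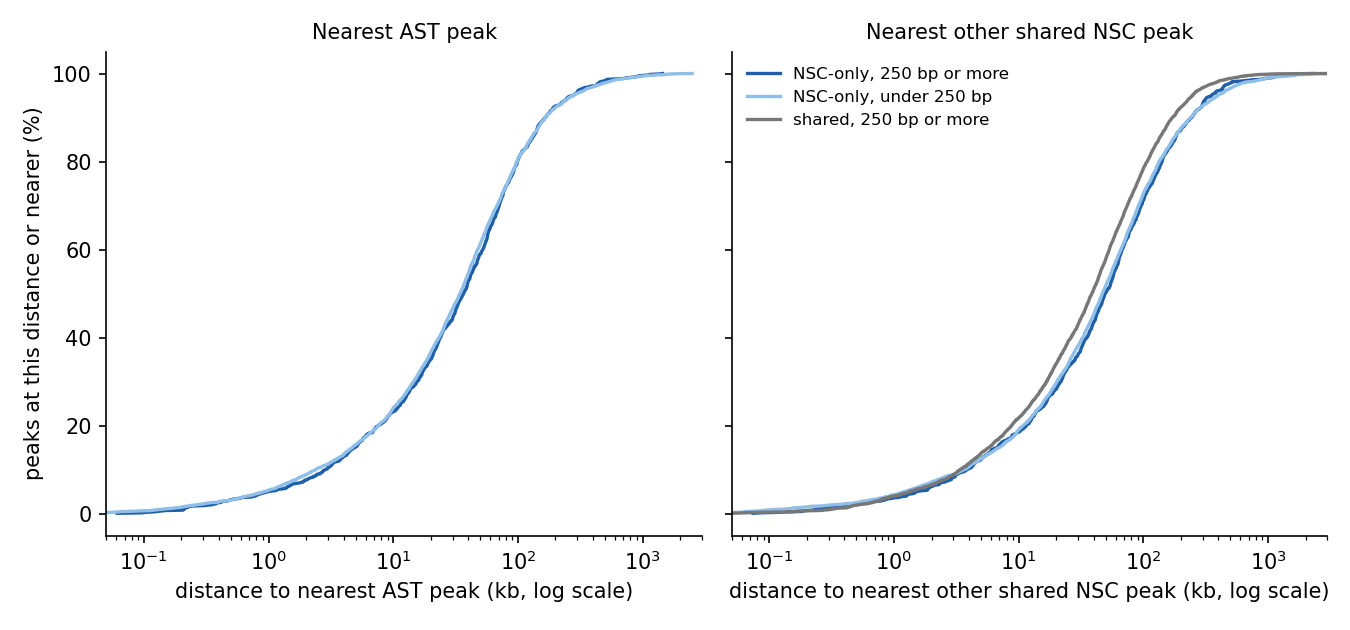
Cumulative percentage of autosomal NSC peaks (vertical axis) by distance in kb (log scale, horizontal axis) to the nearest AST peak, left, and to the nearest other shared NSC peak, right. The curves of wide (dark blue) and narrow (light blue) NSC-only peaks run together, with medians of 36.8 and 34.3 kb on the left and 49.3 and 46.8 kb on the right. The curve of wide shared peaks (grey, right) has a median of 38.6 kb and lies above both from 5 to 100 kb. At 2 kb it lies below that of narrow NSC-only peaks (6.56% against 7.24%).

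A larger share of weak than of strong sites had an AST peak nearby. An AST peak within 10 kb was found for 28 of 98 sites below a fold enrichment of 5 (28.6%, 19.9 to 38.6), 143 of 548 from 5 to 10 (26.1%, 22.5 to 30.0), 49 of 271 from 10 to 15 (18.1%, 13.7 to 23.2) and 5 of 55 from 15 upward. The intervals of neighbouring bins overlapped, while that of the bin from 5 to 10 lay above that of the strongest sites. Within 1 kb the counts were 7, 36, 5 and 0. The 48 sites with an AST peak within 1 kb had a median fold enrichment of 6.02, and those 1 to 10 kb away one of 8.21.

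The AST peak nearest to a site was usually one that NSCs had too. It was shared in 738 of 972 cases (75.9%, 73.1 to 78.6), and 75.3% of all autosomal AST peaks were shared. Within 1 kb it was shared in 32 of 48 cases (66.7%, 51.6 to 79.6). Its median fold enrichment was 7.60 in the AST list and 6.27 within 1 kb, beside 7.98 for all autosomal AST peaks. The remaining 16 within 1 kb were AST-only peaks, so that here each cell type had its own call at nearly one place.

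The 5 nearest approaches had low fold enrichment in both lists. On chromosome 6 the site at 22825969 to 22826297 (fold enrichment 5.28) lay 61 bp from an AST-only peak at 22826359 to 22826487 (4.56), and on chromosome 9 that at 70682459 to 70682737 (4.78) lay 119 bp from an AST-only peak at 70682207 to 70682339 (6.59). The other 3 were found at 69152656 to 69153013 of chromosome 1 (3.02), 130882266 to 130882518 of chromosome 8 (5.28) and 58911986 to 58912256 of chromosome 15 (5.28), and lay 97 to 127 bp from a shared AST peak. A shared NSC peak lay 0.084 to 0.224 kb from those 3 sites. With sites that had an AST peak within 1 kb left out, 924 remained.

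At the other end, 16 sites (1.65%, 0.944 to 2.66) on 10 autosomes lay 500 kb or more from any AST peak, as did 2.15% (1.78 to 2.59) of narrow NSC-only peaks. Their fold enrichment had a median of 9.39 and reached 18.2, at 107709484 to 107709808 on chromosome 2, which was 774.9 kb from an AST peak. The most distant pair lay on chromosome 5 at 70095562 to 70095821 (fold enrichment 11.7) and 70004540 to 70004875 (10.6), at 1451 and 1360 kb, and these were each other's nearest NSC peak at 90.7 kb. The next were on chromosome 16 at 82521878 to 82522128 (6.16), at 1144 kb, on chromosome 8 at 40094666 to 40094944 (7.33), at 1141 kb, and on chromosome 10 at 101880579 to 101880856 (11.7), at 1025 kb. Another NSC peak lay within 100 kb of 11 of the 16 sites. The nearest NSC peak was itself NSC-only for 14, a count set largely by construction. A shared NSC peak overlaps an AST peak, so it could not lie much nearer than 500 kb to these sites.

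The next measure was the place of these sites among the cohesin sites that both cell types share. The median distance to the nearest shared NSC peak was 49.3 kb (44.4 to 56.2), against 46.8 kb (44.9 to 49.2) for narrow NSC-only peaks, and 38.6 kb (36.9 to 40.2) from a wide shared peak to the next shared one. A shared NSC peak lay within 10 kb of 180 sites (18.5%, 16.1 to 21.1), of 19.1% (18.0 to 20.2) of narrow NSC-only peaks and of 21.7% (20.8 to 22.7) of wide shared peaks. Of the 55 strong sites 4 had one within 10 kb. The nearest NSC peak of any class was a wide shared peak for 346 sites (35.6%, 32.6 to 38.7), a narrow shared one for 229 (23.6%, 20.9 to 26.4), a narrow NSC-only one for 323 (33.2%, 30.3 to 36.3) and another wide NSC-only site for 74 (7.61%, 6.02 to 9.46). The classes made up 38.0%, 27.8%, 28.7% and 5.42% of autosomal NSC peaks, so that the nearest peak was NSC-only somewhat above its share of the list, and narrow NSC-only peaks gave like values (33.0% and 6.97%).

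The sites were scattered over many intervals between shared peaks. Of 11782 intervals between neighbouring shared NSC peaks on the autosomes, 863 (7.32%) held at least 1 site, 776 of them exactly 1, 72 of them 2 and 15 of them 3 or more. Only 2 sites lay outside the first or last shared peak of a chromosome. Intervals with a site had a median length of 233 kb, against 87.0 kb for all, and long intervals held one more often. A site was found in 1.26% (0.943 to 1.65) of intervals under 50 kb, 6.64% (5.94 to 7.39) of those of 50 to 200 kb, 14.7% (13.2 to 16.3) of those of 200 to 500 kb and 21.3% (18.8 to 24.1) of those of 500 kb or more. Per Mb of interval the order turned round, with 0.645, 0.646, 0.545 and 0.214 sites. In 351 of the 863 intervals with a site (40.7%, 37.4 to 44.0) ASTs had an AST-only peak of their own, against 22.3% of the 10919 intervals without one, a difference in which the greater length of the former was not taken into account.

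Counted in windows of 1 Mb, sites were more numerous where shared peaks were, from 1 shared peak upward. The 349 windows with 10 or more shared peaks held 0.582 sites each, the 593 with 6 to 9 held 0.558, the 634 with 3 to 5 held 0.453, the 412 with 1 or 2 held 0.265 and the 143 with an NSC peak but no shared one held 0.294, a value raised by construction, since the NSC peak that admits a window can be the site itself. In all, 724 of the 2131 windows with any NSC peak held a site, 39 of them 3 or more. Along the chromosomes the sites were placed as wide shared peaks were. Divided into 3 equal parts from the centromere end, taken as position 1, to the last NSC peak, the chromosomes had 26.0% (23.3 to 28.9) of the sites in the first part, 34.1% (31.1 to 37.1) in the middle and 39.9% (36.8 to 43.1) in the last, and wide shared peaks gave 26.4%, 34.0% and 39.7%.

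Sites lay near one another somewhat more often than wide shared peaks lay near a site. Another wide NSC-only site was within 100 kb of 158 sites (16.3%, 14.0 to 18.7), and such a site was within 100 kb of 11.7% (10.9 to 12.4) of wide shared peaks, 13.8% (12.8 to 14.7) of narrow NSC-only peaks and 12.01% (11.5 to 12.5) of all autosomal NSC peaks. Within 500 bp it was 1.85% (1.101 to 2.91) of the sites, 0.191% (0.102 to 0.326) of wide shared peaks and 0.990% (0.738 to 1.2995) of narrow NSC-only peaks. The interval of the sites overlapped that of narrow NSC-only peaks at both distances. The fullest spans of 100 kb held 4 sites, and there were 2 of them, both on chromosome 1. The first covered 59.5 kb from 108069893 to 108129347, with fold enrichments of 4.34 to 6.16 and AST peaks 1.92 to 32.4 kb away. Its first 3 sites lay close together, at 108069893 to 108070285, 108070390 to 108071019 and 108073462 to 108073717. The third run named, the first by chromosome and position of 6 spans with 3 sites, covered 65.0 kb of chromosome 1 from 90967792 to 91032839. Its sites had fold enrichments of 4.40 to 5.28 and AST peaks 1.37 to 8.61 kb away. Background ran from 1 to 1.55 times the usual at the sites of the first run and from 1 to 1.87 at those of the third.

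The second run of 4 lay farther from AST peaks than the first and the third. It covered 48.9 kb of chromosome 1 from 160393828 to 160442720 and held no other NSC peak and no AST peak, the nearest AST peak being 120.0 to 144.5 kb from its sites. It lay in the interval that held most sites, 310.5 kb between shared NSC peaks from 160273860 to 160584395, where 5 of the 6 NSC peaks were wide NSC-only sites and ASTs had no peak at all. These 5 sites were 601 bp (at 160285272 to 160285872), 600 bp (160393828 to 160394427), 501 bp (160408001 to 160408501), 289 bp (160439706 to 160439994) and 421 bp wide (160442300 to 160442720). Their fold enrichments were 8.26, 10.7, 4.78, 5.57 and 10.3 in that order, over a background of 1.24, 1.01, 1.53, 1.00 and 1.00 times the usual. A pair of them, at 600 and 601 bp, ranked among the 7 widest of the class. This interval was singled out after its values had been seen. Only an AST-only peak could lie wholly between neighbouring shared NSC peaks. Of the 863 intervals with a site 351 (40.7%) held one, so that most held no AST peak, as here.

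**Figure D4:**
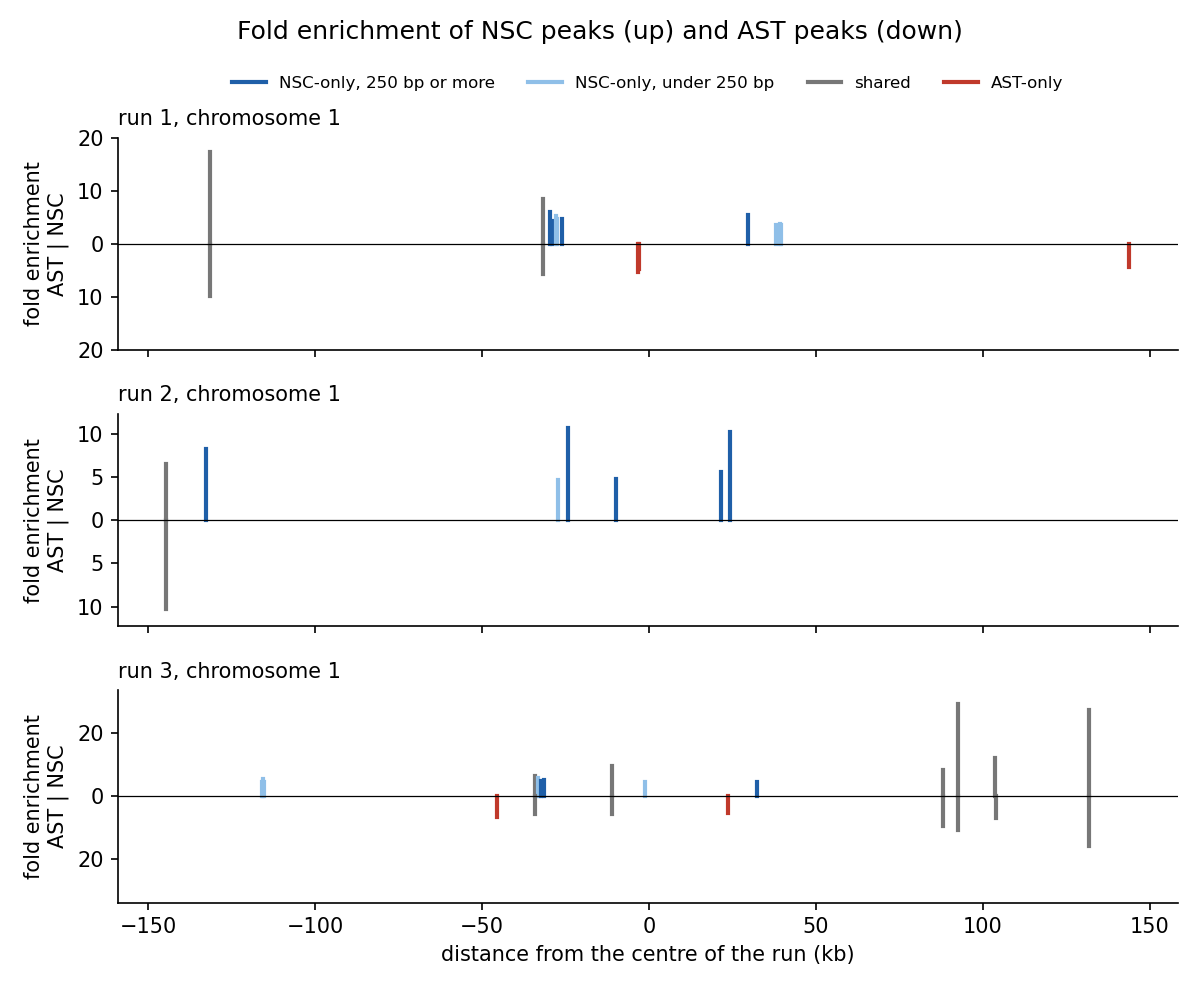
The 3 fullest runs of wide NSC-only sites within 100 kb, all on chromosome 1, with the distance from the centre of each run in kb on the horizontal axis and fold enrichment of NSC peaks drawn upward and of AST peaks drawn downward, each in its own list's scale. Wide NSC-only sites are in dark blue, narrow NSC-only peaks in light blue, shared peaks in grey and AST-only peaks in red, and in the second panel no AST peak lies within 120.0 kb of the 4 sites of the run.

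Autosomes differed in the share of their wide NSC peaks that had no overlapping AST peak. It was highest on chromosome 1, at 134 of 786 (17.0%, 14.5 to 19.9), chromosome 3, at 71 of 417 (17.0%, 13.5 to 21.0), and chromosome 6, at 72 of 458 (15.7%, 12.5 to 19.4), where the interval lay barely above the 12.5% of all autosomes. It was lowest on chromosome 18, at 21 of 274 (7.66%, 4.81 to 11.5), chromosome 11, at 43 of 540 (7.96%, 5.82 to 10.6), and chromosome 19, at 24 of 262 (9.16%, 5.96 to 13.3). For chromosome 19 and the other 13 autosomes the interval included 12.5%, and no adjustment was made for the 19 autosomes looked at. Of narrow NSC peaks 50.8% were NSC-only over all autosomes. The share was likewise higher on chromosomes 1 (62.0%) and 3 (57.8%) and lower on chromosomes 11 (40.7%) and 19 (37.9%). Chromosomes 6 (53.5%) and 18 (47.4%) lay closer to the value of all autosomes. On chromosome X, which was left out of the class, 29 of 126 wide NSC peaks were NSC-only (23.0%, 16.0 to 31.4).

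The sites of chromosome 1 were weak, and its wide peaks, NSC-only and shared, often lay over raised background. Its sites had a median fold enrichment of 6.79, the lowest of the 19 autosomes, and 62 of the 134 (46.3%, 37.6 to 55.1) lay over a background more than 1.1 times the usual, against 150 of 838 elsewhere (17.9%, 15.4 to 20.7). Wide shared peaks of chromosome 1 were over raised background in 51.7%, so that raised background was no more frequent at its NSC-only sites. A part of background in the higher share was not tested. With NSC peaks held to a −log10 q of at least 10, chromosome 1 had 10.03% (7.90 to 12.5), an interval that included the 8.52% of all autosomes at that threshold. Under other settings chromosome 1 stayed above all autosomes, at 14.2% (11.7 to 16.8) against 10.9% with a −log10 q of at least 5, 13.3% (10.6 to 16.4) against 8.37% for peaks of 300 bp or more, and 14.8% (12.4 to 17.6) against 11.3% with the NSC list held to the length of the AST list. Without NSC peaks over a background of more than 2 times the usual it was 17.2% (14.6 to 20.2) against 12.7%, as large as with them. At a −log10 q of at least 10 the interval of chromosome 18 (6.95%, 4.17 to 10.8) also included the value of all autosomes. At that threshold chromosome 3, whose sites had a median fold enrichment of 10.3, lay above at 13.7% (10.5 to 17.6), and chromosome 11 below at 5.13% (3.38 to 7.42).

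**Figure D5:**
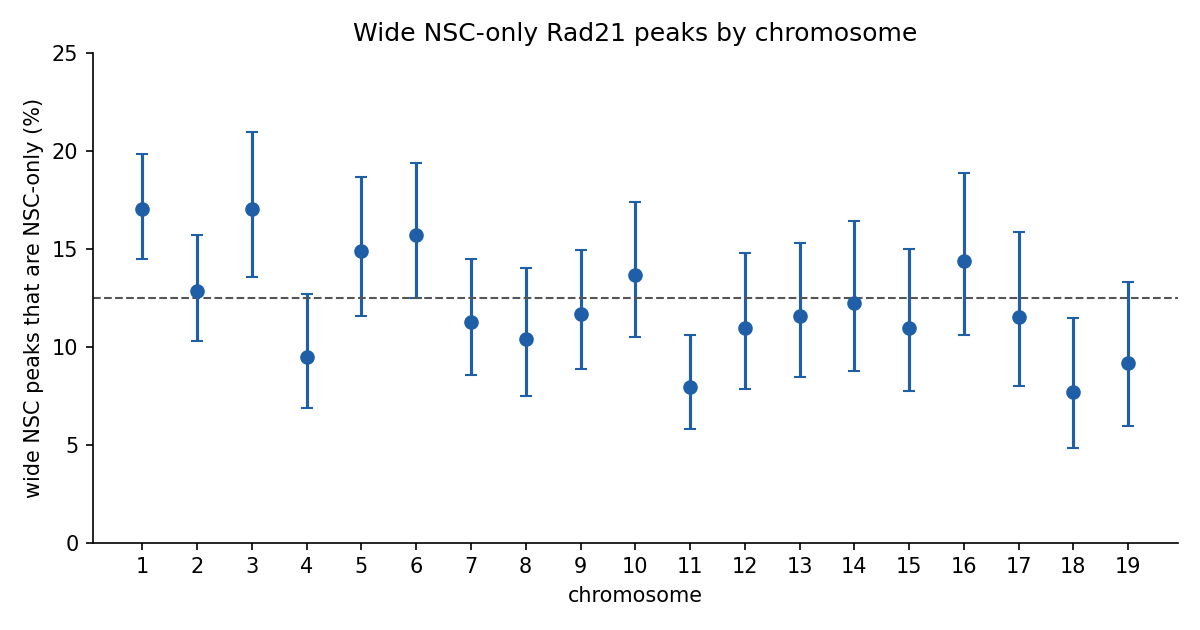
Wide NSC-only sites as a percentage of the wide NSC peaks of each autosome (vertical axis, horizontal axis the chromosome), with exact 95% binomial intervals and the 12.5% of all autosomes as a dashed line. The intervals of chromosomes 1, 3 and 6 lie above the line and those of chromosomes 11 and 18 below it.

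Over the class as a whole the local background was not raised above that of other peaks. It was over 1.1 times the usual at 21.8% (19.3 to 24.5) of the sites, 26.4% (25.4 to 27.5) of wide shared peaks and 22.2% (21.1 to 23.4) of narrow NSC-only peaks, and over 2 times the usual at 22 sites (2.26%, 1.42 to 3.41). Among the sites it fell with strength, from 50% below a fold enrichment of 5 to 3.64% from 15 upward, fold enrichment being itself a ratio to that background. The usual background was 3.22 scaled fragments in the NSC list and 2.63 in the AST list, at pile-up scales of 0.944 and 1. The part of this difference between the libraries in the absence of AST peaks was not tested.

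The mirror class was smaller. Of 3950 autosomal AST peaks of 250 bp or more, 123 had no overlapping NSC peak (3.11%), against 24.7% of all autosomal AST peaks, and the median fold enrichment of these 123 was 6.46. AST peaks were narrower as a whole, with a median of 204 bp on the autosomes against 233 bp in NSCs, so that 250 bp does not cut both lists at the same rank.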

How the data were processed

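Rad21 ChIP-seq peak lists of 2 cell types were used, each from 1 Rad21 library. Reads had been aligned to mm9, with Bowtie 1.0.0 and MACS2 2.0.9 listed in the submitters' processing notes (settings: not given in the sources used here). Per peak, the authors deposited its position and summit, the fold enrichment as a ratio to local background, and p and q as −log10 values (lowest −log10 q 1.02 in NSCs and 1.03 in ASTs). Read depth is unknown.

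Peaks with 1 bp or more in common with the other cell type were termed shared. Distances run from edge to edge, and positions count from 1. Shares have exact binomial (Clopper-Pearson) 95% intervals and medians order-statistic ones. Background and pile-up were recovered from fold enrichment and −log10 p as a Poisson tail, with a pile-up scale of 0.944 in NSCs and 1 in ASTs, which gave back the deposited p within 0.05 for 100% and 99.99% of peaks. The usual background is the median of peaks whose fold enrichment exceeds 8. Scripts were tested on simulated data.

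Named sites were, by rule, the 10 strongest, the 5 widest, the 5 farthest from and nearest to AST peaks, 5 on each side of the width limit, 3 runs, and the 3 autosomes with the highest and the 3 with the lowest share. The planned gene lists and the CTCF motif were not run, as no mm9 annotation or sequence was used here. The sites and lists were chosen with earlier results of these data known. Calculations used Python 3.11.15 with scipy 1.17.1, numpy 2.4.6 and pandas 2.3.3, and plots matplotlib 3.10.9.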

Additional observations from a re-analysis of the deposited data

How the results depend on the processing

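Under 11 alternative settings 142 values were recomputed, and 54 of these left the interval of the reported value (for counts, 1.5 times either way) while 88 did not. A width minimum of 200 bp gave 2192 sites (19.0% of wide peaks, median fold enrichment 7.63), and one of 300 bp gave 405 (8.37%, 8.80, with a shared NSC peak within 10 kb for 16.0%). With NSC peaks of a −log10 q of at least 5, 10.9% were NSC-only (median 9.09, shared peak within 10 kb for 15.9%). At 10 there were 612 sites (8.52%, median 10.3), with an AST peak within 10 kb for 20.1% and a shared one for 14.5%. An NSC list held to the length of the AST list gave 11.3% and a median of 8.80. AST peaks held to a −log10 q of at least 5 gave 17.3%, 8.87 and an AST peak within 10 kb for 19.8%, since this removes AST partners. Asking for no AST peak within 1 kb gave 19.2% with an AST peak and 15.7% with a shared NSC peak within 10 kb. Counting as shared only a reciprocal overlap of 0.5 gave 1779 sites (22.8%, median 10.2, AST peak within 10 kb for 58.0%), because overlapping peaks are then also counted as NSC-only. With all chromosomes, without chromosome 1, and without NSC peaks of background over 2 times the usual, each of these 5 measures stayed within its limit. With 1 library per cell type and depth unknown, a peak that was not called in ASTs need not be an unbound site.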
